A study of Mus musculus with 12 samples.

Results

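The response of resting B cells to activation was compared between cells with and without RUNX1. For every gene, the log2 change from 0 h to 3 h in Cre-only cells was subtracted from the same change in Runx1 c-k/o cells, and this difference of the differences is called the interaction below. All 12 samples of the series were used, and 13538 of the 37991 genes in the count table had enough reads to be tested. An interaction above 0 means that the 3-h level, relative to rest, was above that of Cre-only cells when RUNX1 was missing: an induced gene then rose more and a reduced gene fell less.

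Both groups of mice carried the CD23-Cre transgene (CD23-iCre), which is expressed from the transitional stage of B cell maturation onward, and only the Runx1 c-k/o mice also carried Runx1 alleles with LoxP sites around exon 4 (Runx1 fl/fl). Cells were resting B cells purified from spleens of mice aged 8 weeks, used at 0 h or after 3 h of culture with anti-IgM, which crosslinks the B cell receptor (BCR), and IL-4. No group was cultured for 3 h without anti-IgM and IL-4. Changes called activation here thus cannot be told apart from effects of purification and culture. Runx1 c-k/o cells are also called c-k/o cells here. Each of the 4 groups held 3 samples, named replicates 1 to 3. The study calls them biological replicates. The labels do not say whether replicates came from separate animals, so p-values measure the spread between these samples. Purification removed other cells by negative selection, and Cre-only mice are controls for the transgene but not for the floxed alleles.

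RUNX1 is a DNA-binding transcription factor that works with the cofactor CBFB and can activate or repress genes, and it is best known for its roles in the formation of blood stem cells and of lymphocytes. BCR engagement starts kinase cascades that induce immediate early genes, then MYC-dependent growth, ribosome synthesis and entry into the cell cycle, while the quiescence program of KLF and FOXO factors is shut down. IL-4 acts beside this through STAT6. Type I interferon response genes are those induced by interferon alpha and beta, many of them through the interferon-stimulated response element (ISRE) in their promoters.

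Libraries held 14442251 to 23641552 counts, so that 3 counts corresponded to 0.127 to 0.208 CPM (counts relative to the normalized size of each library), a limit that covers counting error only. The counts of Runx1 cover all its exons and do not separate exon 4. Its level was 83.6, 81.8 and 86.7 CPM at rest and 38.5, 37.04 and 34.9 at 3 h in Cre-only cells, and 101, 95.7 and 103 at rest and 47.3, 70.6 and 74.5 at 3 h in Runx1 c-k/o cells. Runx1 transcript was thus not lower in the c-k/o libraries at either time, and it was called higher in them at 3 h, by 0.80 on the log2 scale (edgeR adjusted p = 0.00769). Its interaction was 0.55 (standard error 0.19, edgeR adjusted p = 0.728). The 12 B cell markers detected summed to 27812 to 28812 CPM in Cre-only and 30081 to 33805 CPM in Runx1 c-k/o cells at rest, and to 16041 to 16671 and 16610 to 21017 CPM at 3 h. The 12 myeloid markers summed to 395 to 480 and 342 to 621 CPM at rest and to 76.9 to 101 and 81.2 to 152 CPM at 3 h. Summed markers of erythroid cells and platelets, 10 genes, spanned 49.99 to 269 CPM in Cre-only and 258 to 424 CPM in Runx1 c-k/o cells at rest, and 15.8 to 141 and 120 to 207 CPM at 3 h, the higher range being that of Runx1 c-k/o cells each time. The 13 markers of marginal zone and B1 cells summed to 1766 to 2050 CPM in Cre-only and 2259 to 2458 CPM in Runx1 c-k/o cells at rest, and to 2897 to 3121 and 3069 to 3762 CPM at 3 h. None of these markers was at 0 in all 3 libraries of a group, and their part in the results was not tested. In bulk RNA, fewer cells of a type and less RNA per cell cannot be told apart.

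Some Runx1 c-k/o libraries departed from their replicates in ways that bear on the interaction. Replicate 2 at rest and replicate 1 at 3 h differed most from their group means over all genes, with SDs of 0.270 and 0.332 on the log2 scale against 0.139 to 0.245 in the other 10, and both held more counts on ribosomal protein genes. In addition, both libraries numbered 2 had levels between those of the 2 time points for genes with a strong response. For 44 genes with at least 20 CPM at rest and at least 32-fold lower at 3 h in Cre-only cells, the median remaining level at 3 h was 2.11, 1.88 and 1.82% of the resting level in the Cre-only libraries and 1.45, 8.43 and 1.75% in the Runx1 c-k/o libraries. For 11 genes induced at least 32-fold, the level at rest was 1.30, 1.75 and 1.31% of the 3-h level in Cre-only cells and 1.82, 14.4 and 1.78% in RUNX1-deficient cells. Replicate 2 thus stood above the others in both Runx1 c-k/o groups. The immediate early gene Fosb shows the size of it: at 3 h it was at 2.55, 3.20 and 2.87 CPM in Cre-only and 7.21, 123 and 4.24 CPM in Runx1 c-k/o cells, after 2111, 1952 and 2105 and 2427, 1696 and 2317 CPM at rest. Cish, a STAT5 target and inhibitor of cytokine signaling, was at 0.819, 1.20 and 0.620 CPM at rest in Cre-only and 1.93, 19.1 and 2.39 CPM in Runx1 c-k/o cells, and at 112, 98.9 and 129 and 115, 127 and 126 CPM at 3 h.

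The activation response was mostly shared by the genotypes. In edgeR's quasi-likelihood test, with the Benjamini-Hochberg method and a threshold of 0.05 for the adjusted p, 5229 genes rose (38.6%) and 4930 fell (36.4%) in Cre-only cells, 75.0% of those tested. In the absence of RUNX1, 5110 rose (37.7%) and 4952 fell (36.6%), 74.3% of those tested. The response averaged over the genotypes passed for 11134 genes, 82.2%. In the separate tests 9339 genes changed in the same direction in both genotypes and 5 in opposite directions. The 2 responses had a Pearson correlation of 0.962 across genes, which are not independent replicates. The interaction passed the same threshold for 11 genes, 0.0813% of the genes tested, 9 of them above 0 (0.0665%) and 2 below 0 (0.0148%). At an unadjusted p under 0.05 there were 350 genes above 0 (2.59%) and 336 below 0 (2.48%). The median interaction of all genes was -0.04, and 42.8% of genes lay above 0.

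**Figure D1:**
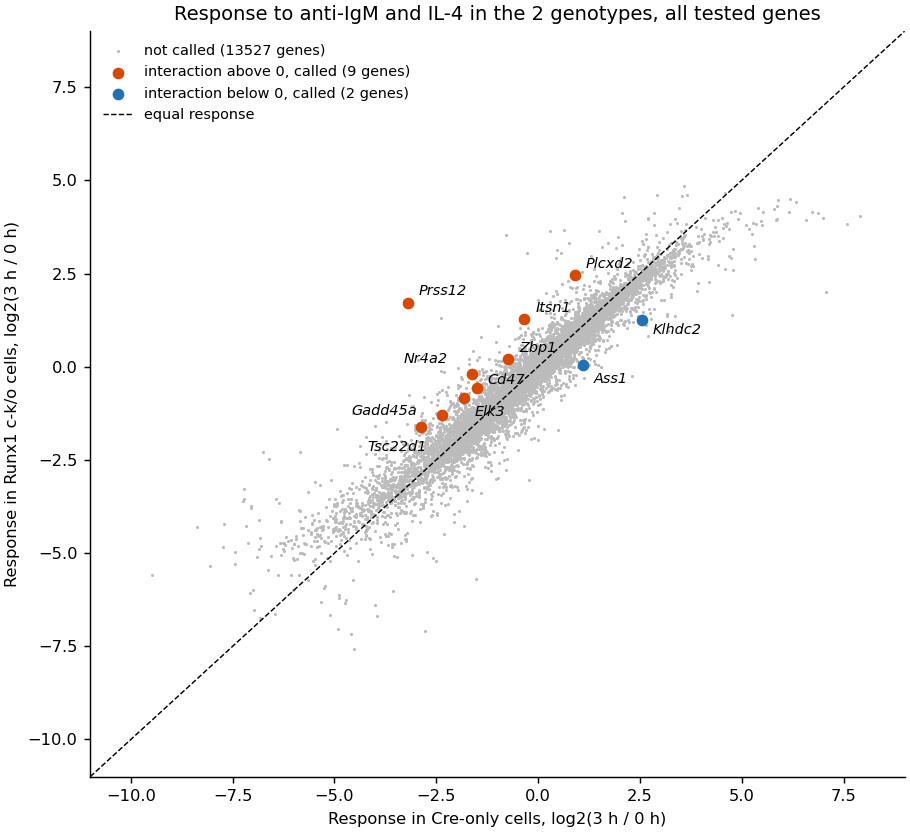
Log2 change from 0 h to 3 h in c-k/o cells (vertical axis) against the same change in Cre-only cells (horizontal axis), with 1 point for each of the 13538 tested genes and the 11 genes called for the interaction in color. Most points lie along the line of equal response, the 9 genes with an interaction above 0 lie above it and the 2 below 0 lie under it.

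How far equal responses could be shown was limited by the spread between libraries: the median standard error of the interaction was 0.24 on the log2 scale. The 95% interval of the interaction lay within 0.5 of 0 for 3923 genes (29.0%), whose responses were near-equal by this bound. Genes whose response averaged over the genotypes was at least 1 on the log2 scale at an adjusted p under 0.05 are called responding, and there were 2717 induced and 3388 reduced ones (20.1% and 25.0%). Among the induced genes 600 were near-equal, 1 was called larger and 1 smaller in c-k/o cells, and 19 were larger and 91 smaller at an unadjusted p under 0.05. Among the reduced genes 357 were near-equal, 0 were called larger and 4 smaller by edgeR's test, and 91 were larger and 171 smaller at an unadjusted p under 0.05 (6 and 29 passed in the adjusted DESeq2 test). Without both Runx1 c-k/o libraries numbered 2 the balance at this unadjusted p was the opposite, with 230 larger and 46 smaller induced genes and 331 larger and 106 smaller reduced genes. The remaining 2115 induced and 3027 reduced genes were neither called nor near-equal.

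Among strongly responding genes the direction of the interaction depended on the libraries numbered 2. With all 12 libraries, the 309 genes whose average response was below -4 had a median interaction of 0.65, and the 44 genes above 4 had a median of -1.41, so both ends moved less in c-k/o cells. Without both Runx1 c-k/o libraries numbered 2 the medians of these bins became -0.40 and 0.34, the opposite signs. Without the 2 libraries that differed most from their group means, they were 0.87 and 0.16. Among all induced genes the share with a larger response in c-k/o cells was 32.2% with all libraries and 72.6% without both libraries numbered 2, and among reduced genes it was 46.6% and 65.2%. The size of the strongest responses without RUNX1 is thus not resolved by these libraries, while genes with an average response within 0.5 of 0 had medians of -0.03 and -0.01 in these fits.

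**Figure D2:**
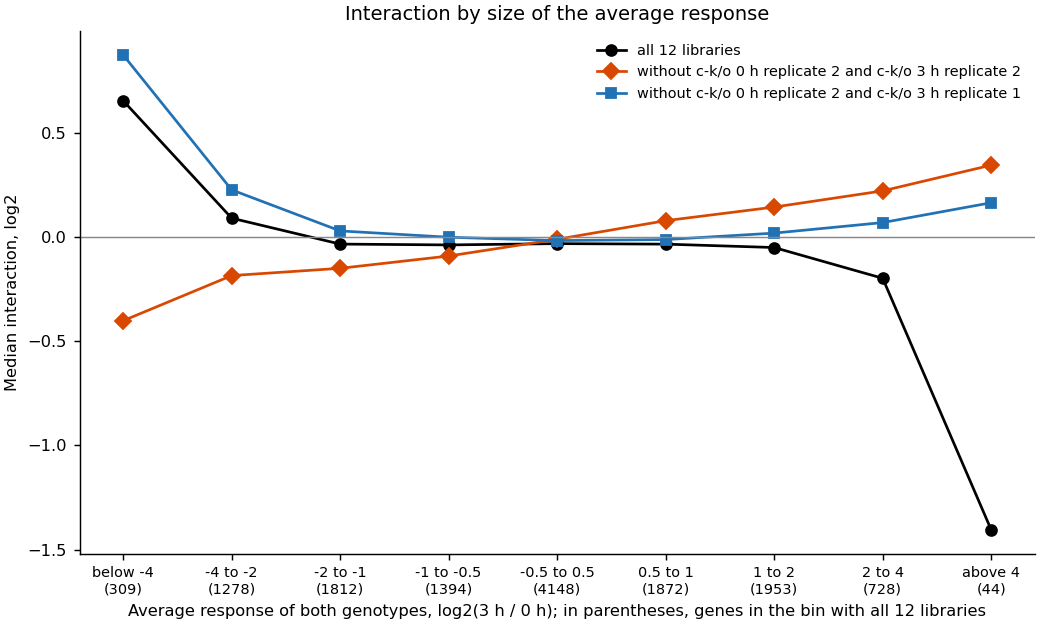
Median interaction (vertical axis, log2) of genes binned by the average response of both genotypes (horizontal axis, log2), with all 12 libraries, without both Runx1 c-k/o libraries numbered 2, and without the 2 libraries that differed most from their group means. The lines lie close together in the middle bins and part at the ends, where leaving out the libraries numbered 2 turns the medians of 0.65 and -1.41 into -0.40 and 0.34.

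The largest group of called genes fell on activation in Cre-only cells and by less in c-k/o cells, where Nr4a2 did not pass the test: Tsc22d1, Nr4a2, Elk3, Cd47 and Gadd45a. Coordinates here are those of mm9. Tsc22d1 (ENSMUSG00000022010, chromosome 14, 76814768 to 76907569, plus strand) encodes a leucine-zipper factor of the TSC22 family. It was at 140.5, 138 and 136 CPM at rest and 19.5, 17.8 and 19.5 CPM at 3 h in Cre-only cells, and at 128, 123 and 109.9 CPM and 42.9, 40.2 and 33.9 CPM in c-k/o cells. The c-k/o libraries lay below the Cre-only ones at rest and above them at 3 h. The changes were -2.87 and -1.62 on the log2 scale, an interaction of 1.24 (standard error 0.14, edgeR adjusted p = 0.00720). Nr4a2 (ENSMUSG00000026826, chromosome 2, 56959241 to 56976414, minus strand) encodes an orphan nuclear receptor induced by antigen receptor signals. It was at 45.6, 46.01 and 60.8 CPM at rest and 14.9, 16.9 and 17.6 CPM at 3 h in Cre-only cells, and at 57.1, 49.4 and 52.96 and 47.6, 45.02 and 46.1 CPM in c-k/o cells. The groups overlapped at rest, and at 3 h the c-k/o libraries had kept nearly the resting level. Its change was -1.63 in Cre-only and -0.20 in c-k/o cells (interaction 1.42, standard error 0.17, edgeR adjusted p = 0.00814).

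Elk3 (ENSMUSG00000008398, chromosome 10, 92710159 to 92773880, minus strand), a partner of the serum response factor that can repress its targets, fell from 62.4, 65.1 and 64.8 CPM to 18.1, 17.9 and 18.3 CPM in Cre-only cells. Without RUNX1 it fell from 43.6, 41.1 and 45.99 to 22.9, 26.8 and 23.9 CPM. The c-k/o libraries were the lower ones at rest and the higher ones at 3 h, with an interaction of 1.00 (standard error 0.12, edgeR adjusted p = 0.00814). Cd47 (ENSMUSG00000055447, chromosome 16, 49855731 to 49915123, plus strand), the surface ligand of SIRPA that protects cells from phagocytosis, was at 189, 194 and 181 CPM at rest and 64.4, 62.97 and 70.3 CPM at 3 h in Cre-only cells. In c-k/o cells it was at 225, 219 and 224 and 162, 135 and 154 CPM. The c-k/o libraries were above the Cre-only ones at both times, by a wider margin at 3 h, and the interaction was 0.95 (standard error 0.12, edgeR adjusted p = 0.0116). Another identifier named Cd47 overlaps it on the same strand. Gadd45a (ENSMUSG00000036390, chromosome 6, 66985090 to 66987451, minus strand), a stress-induced regulator of growth arrest, went from 39.8, 37.6 and 38.7 to 8.20, 6.60 and 7.52 CPM in Cre-only cells and from 43.2, 45.1 and 40.2 to 17.9, 18.05 and 16.1 CPM in c-k/o cells. Its c-k/o levels were also above the Cre-only ones at both times (interaction 1.07, standard error 0.14, edgeR adjusted p = 0.0116). Tsc22d1 and Nr4a2 passed the threshold in 22 of 22 alternatives, Elk3 in 21, Cd47 in 18 and Gadd45a in 16.

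Itsn1 and Prss12 changed in opposite directions in the genotypes, and Zbp1 fell in Cre-only cells without a fall in c-k/o cells. Itsn1 (ENSMUSG00000022957, chromosome 16, 91729526 to 91920842, plus strand), which encodes the endocytic scaffold intersectin 1, was at 28.7, 25.1 and 25.8 CPM at rest and 23.6, 18.9 and 20.6 CPM at 3 h in Cre-only cells. In c-k/o cells it was at 21.1, 28.4 and 23.4 CPM at rest, where the groups overlapped, and at 63.9, 55.97 and 57.9 CPM at 3 h, above every other library. It fell by 0.33 on the log2 scale in Cre-only and rose by 1.29 in c-k/o cells, an interaction of 1.62 (standard error 0.17, edgeR adjusted p = 0.00720), which passed in 21 of 22 alternatives. It lies 0.889 Mb from the Runx1 gene. Zbp1 (ENSMUSG00000027514, chromosome 2, 173032113 to 173044424, minus strand), a sensor of Z-form nucleic acids and an interferon-induced gene, was at 49.6, 47.1 and 46.9 CPM at rest and 29.7, 24.8 and 31.5 CPM at 3 h in Cre-only cells. In c-k/o cells it was at 54.3, 50.6 and 50.3 and 58.1, 55.6 and 63.96 CPM, above the Cre-only libraries at both times. Its interaction was 0.93 (standard error 0.14, edgeR adjusted p = 0.0282), and it passed in 10 of 22 alternatives. Prss12 (ENSMUSG00000027978, chromosome 3, 123149831 to 123209520, plus strand), which encodes the secreted protease neurotrypsin, was near the floor: it had 37, 19 and 22 counts at rest and 2, 3 and 3 at 3 h in Cre-only cells, and 2, 1 and 1 at rest and 5, 4 and 5 at 3 h in c-k/o cells. Only the resting Cre-only libraries held more than 5 counts, and its fitted interaction of 4.91 (edgeR adjusted p = 0.0148) depends on how such low counts are modeled.

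For Klhdc2, Ass1 and Plcxd2 the difference lay in induction. Klhdc2 (ENSMUSG00000020978, chromosome 12, 70397668 to 70411674, plus strand), which encodes a substrate receptor of a cullin ubiquitin ligase, rose from 26.9, 27.7 and 27.5 CPM to 142, 159 and 179 CPM in Cre-only cells. Without RUNX1 it rose from 28.4, 35.4 and 24.9 to 73.4, 70.8 and 67.7 CPM. The resting groups overlapped and the 3-h groups did not, with changes of 2.54 and 1.26 on the log2 scale (interaction -1.29, standard error 0.17, edgeR adjusted p = 0.0148). Ass1 (ENSMUSG00000076441, chromosome 2, 31325727 to 31376192, plus strand), the argininosuccinate synthase of arginine synthesis, rose in Cre-only cells from 12.3, 12.3 and 10.5 to 23.7, 25.4 and 25.99 CPM. Its c-k/o levels were 28.1, 27.9 and 23.1 CPM at rest and 28.00, 27.04 and 27.1 CPM at 3 h. The resting c-k/o libraries were thus already near the activated Cre-only level, and the interaction was -1.04 (standard error 0.14, edgeR adjusted p = 0.0165). Plcxd2 (ENSMUSG00000087141, chromosome 16, 45959376 to 46010331, minus strand), a gene for a protein with a phospholipase C X domain, was induced from a lower start in c-k/o cells. It was at 26.6, 31.5 and 30.00 and 49.8, 58.1 and 57.3 CPM in Cre-only cells and at 4.16, 5.62 and 5.31 and 21.3, 27.4 and 33.8 CPM in c-k/o cells. Its c-k/o levels were the lower ones at both times, although its rise was larger (interaction 1.55, standard error 0.23, edgeR adjusted p = 0.0297). Klhdc2 passed in 15 of 22 alternatives and Ass1 and Plcxd2 in 12 each.

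Some of the 11 calls depended on the fit. With the replicate number as a block within each genotype, Tsc22d1, Nr4a2 and Plcxd2 passed, and the edgeR adjusted p was 0.0709 for Itsn1, 0.260 for Elk3, 0.260 for Cd47, 0.147 for Gadd45a, 0.147 for Klhdc2, 0.275 for Prss12, 0.275 for Ass1 and 0.290 for Zbp1. Without both Runx1 c-k/o libraries numbered 2, it was 0.0707 for Prss12, 0.0649 for Ass1, 0.0639 for Zbp1 and 0.0649 for Plcxd2, and the other 7 passed. The signs of all 11 were the same in each of these fits.

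**Figure D3:**
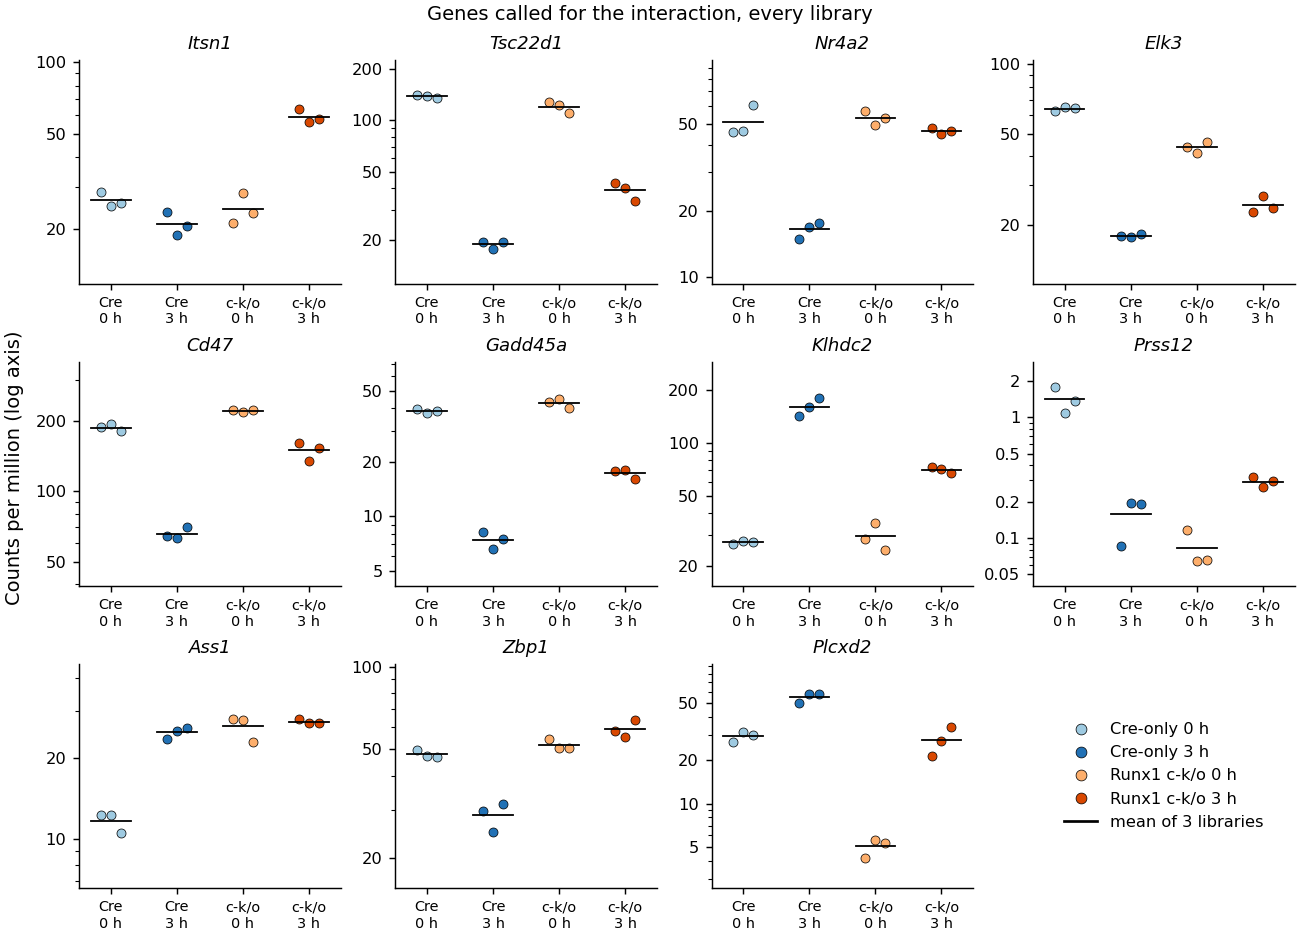
CPM (vertical log axis) of the 11 genes called for the interaction in each of the 12 libraries, by genotype and time, with bars at the mean of 3 libraries. The 3-h Runx1 c-k/o libraries sit above the 3-h Cre-only libraries for 9 of the genes and below them for Klhdc2 and Plcxd2.

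Elk3, Itsn1, Gadd45a and Plcxd2 each overlap a gene on the other strand, and the strand setting of the counting is not given in the sources used here, so reads of such a pair may not be separated. Of the 428 tested genes on chromosome 16, which carries Runx1, 3 were called for the interaction (Itsn1, Cd47 and Plcxd2), and this chromosome holds 3.16% of tested genes. Within 2 Mb of Runx1 there were 40 tested genes, with 1 called for the interaction. Of these 40, 2 were called between the genotypes at rest and 4 at 3 h. Of all tested genes, 0.0813% were called for the interaction, 1.49% between the genotypes at rest and 2.77% at 3 h.

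The clearest class-wide difference was among type I interferon response genes, which were reduced by activation in Cre-only cells and reduced less in c-k/o cells. In Cre-only cells 42 of the 53 tested members fell and 3 rose, with a median change of -1.45. Without RUNX1, 30 fell and 10 rose, with a median of -0.55. The median interaction was 0.65 against -0.04 for all genes, and 50 of 53 members lay above 0, all but Gbp2, Adar and Dtx3l, whose values were -0.07, -0.01 and -0.01. At an unadjusted p under 0.05 there were 29 members above 0 and 0 below, where 2.59% and 2.48% of all genes passed. After adjustment Zbp1 alone passed in edgeR, and 9 members, all above 0, passed in the Wald test of DESeq2, which called 79 genes in all. Across the 22 alternative fits the class median ran from 0.49 to 0.85. It was 0.58 without both libraries numbered 2 and 0.80 without the 2 libraries that differed most from their group means.

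The difference is seen in the class level of each library, the mean of log2(CPM + 0.5) over the 53 members. It was 5.07, 5.02 and 5.08 in resting and 3.82, 3.54 and 3.99 in 3-h Cre-only libraries. In Runx1 c-k/o libraries it was 5.45, 5.37 and 5.34 at rest and 4.41, 4.81 and 4.82 at 3 h. The c-k/o libraries were above the Cre-only ones at both times, and c-k/o replicate 1 at 3 h was the lowest of its group. Between the genotypes, 4 members were called higher in c-k/o cells at rest, where 0.731% of all genes were, and 33 at 3 h, where 1.47% were. The 8 dendritic cell markers, among them the interferon-induced Bst2, summed to 56.6 to 59.4 CPM in Cre-only and 63.5 to 74.5 CPM in c-k/o cells at rest, and to 61.9 to 67.0 and 65.7 to 86.8 CPM at 3 h, and their part in the result was not tested.

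Members with different roles had interactions above 0, whether or not they fell. Usp18, which removes ISG15 from proteins and limits interferon receptor signaling, was at 7.76, 7.80 and 6.57 CPM at rest and 6.04, 4.05 and 6.88 CPM at 3 h in Cre-only cells, and at 12.3, 12.6 and 12.1 and 18.9, 20.3 and 23.1 CPM in c-k/o cells. The 3-h c-k/o libraries were the highest of the 12 (interaction 1.13, standard error 0.23, edgeR adjusted p = 0.156). Irf7, a transcription factor that amplifies the interferon response, was at 61.97, 52.7 and 64.5 and 13.6, 12.6 and 19.1 CPM in Cre-only and at 133, 117 and 113 and 50.6, 55.1 and 50.1 CPM in c-k/o cells. It was higher in every c-k/o library at both times, with an interaction of 0.76 (standard error 0.20, edgeR adjusted p = 0.346). Rtp4 and Parp12, both interferon-induced antiviral genes, had interactions of 1.07 and 1.55 (standard errors 0.24 and 0.37, edgeR adjusted p = 0.236 and 0.244). None of these passed on its own.

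The ISRE, searched on both strands as GAAA, any 2 bases and GAAA, was in the 250 bases before to 50 bases after the start of 21 of the 41 members (51.2%) with a promoter in the RefSeq table for GRCm38.p6. It was in 4.0% of the 8817 tested genes matched and in 3.44% of all 32851 promoters. The RUNX core TGTGGT, searched likewise, was in 17.1% of the members, in 15.8% of the tested genes and in 16.8% of all promoters. Among the called genes it was in 2 of the 10 matched, Tsc22d1 and Prss12, and only 1 of the 5 promoters listed for Tsc22d1 held it. Counted per promoter, 13.3% of the called genes' 15 promoters and 13.3% of those of tested genes held it. The 250 bases before the start are printed 5′ to 3′ for the 3 ISRE-bearing interferon members with the smallest unadjusted interaction p, to show where this element stands, and for the matching promoters of Tsc22d1 and Prss12. Capitals mark the ISRE in the first 3 and the RUNX core in the last 2, and a match is a description of letters.
Oas1a (chr5:120907526-120907775, minus strand): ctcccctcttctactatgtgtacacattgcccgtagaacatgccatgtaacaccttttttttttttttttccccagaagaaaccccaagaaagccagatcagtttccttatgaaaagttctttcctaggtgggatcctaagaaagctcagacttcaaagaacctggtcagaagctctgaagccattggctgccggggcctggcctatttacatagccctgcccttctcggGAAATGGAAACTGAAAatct
Lgals9 (chr11:78984925-78985174, minus strand): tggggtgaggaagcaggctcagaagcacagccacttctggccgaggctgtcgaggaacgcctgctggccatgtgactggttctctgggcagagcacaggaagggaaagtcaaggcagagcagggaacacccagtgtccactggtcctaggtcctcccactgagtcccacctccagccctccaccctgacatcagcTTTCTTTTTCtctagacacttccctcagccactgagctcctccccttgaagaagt
Irgm1 (chr11:48871421-48871670, minus strand): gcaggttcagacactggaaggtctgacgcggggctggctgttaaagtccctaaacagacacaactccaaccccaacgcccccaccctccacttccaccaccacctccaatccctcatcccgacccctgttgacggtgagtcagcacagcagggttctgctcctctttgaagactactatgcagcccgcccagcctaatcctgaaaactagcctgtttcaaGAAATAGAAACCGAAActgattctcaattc
Tsc22d1 (chr14:76488186-76488435, plus strand): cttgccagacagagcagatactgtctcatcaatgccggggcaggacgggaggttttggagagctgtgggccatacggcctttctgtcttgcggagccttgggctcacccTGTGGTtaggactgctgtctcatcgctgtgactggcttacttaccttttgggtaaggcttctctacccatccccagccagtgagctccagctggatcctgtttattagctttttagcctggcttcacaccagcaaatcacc
Prss12 (chr3:123446663-123446912, plus strand): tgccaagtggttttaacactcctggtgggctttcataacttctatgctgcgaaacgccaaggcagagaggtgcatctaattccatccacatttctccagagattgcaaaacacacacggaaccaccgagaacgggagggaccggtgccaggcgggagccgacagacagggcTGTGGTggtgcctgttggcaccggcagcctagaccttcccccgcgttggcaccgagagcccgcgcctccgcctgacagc
The capitals end within 50 bases of the start in the interferon genes, read on the opposite strand in Lgals9. Oas1a, which makes the activator of RNase L and has near-identical neighbors that may share its reads, had a change of -2.27 in Cre-only and -1.41 in c-k/o cells. Lgals9, which encodes galectin-9, was at 29.8, 28.5 and 33.6 CPM in Cre-only and 46.6, 57.3 and 49.6 CPM in c-k/o cells at 3 h, and its changes were -2.05 and -1.54. Irgm1, an interferon-induced GTPase, had changes of 0.18 and 0.73. The 3 genes thus responded in different directions or sizes, with interactions of 0.86, 0.51 and 0.55.

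**Figure D4:**
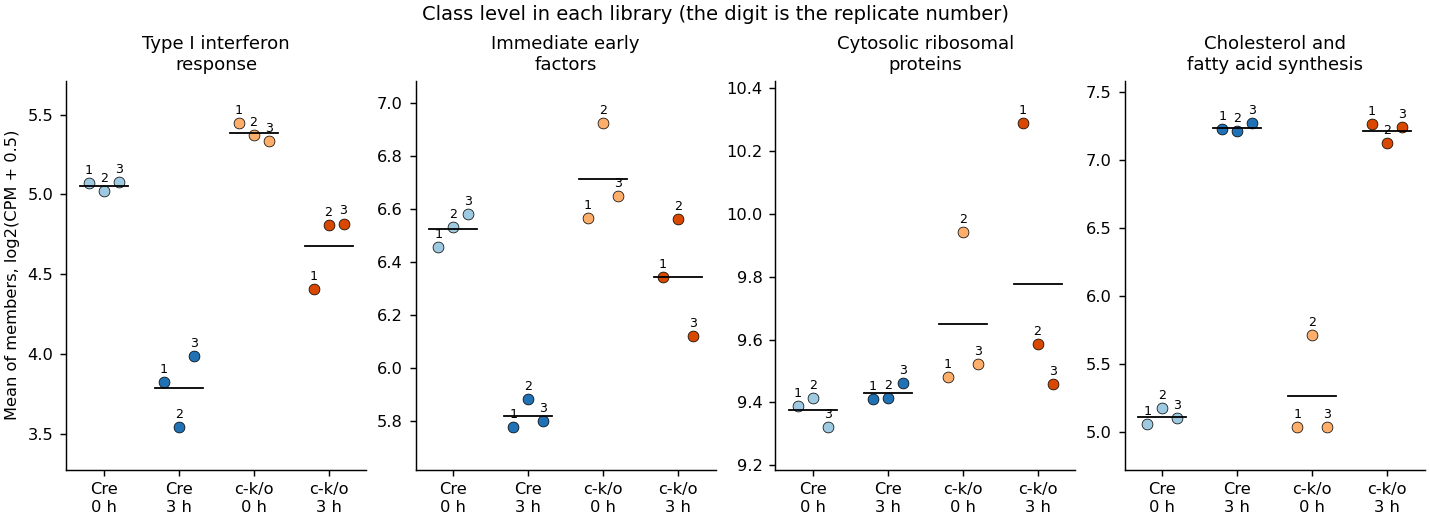
Class level in each library (vertical axis, mean of log2(CPM + 0.5) over members) for 4 gene classes, by genotype and time, with the replicate number at each point and a bar at the group mean. Interferon response genes at 3 h lie between 3.54 and 3.99 in Cre-only and between 4.41 and 4.82 in c-k/o cells, while in the ribosomal protein and cholesterol classes single c-k/o libraries stand apart.

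Receptors and signal transducers of interferons and other cytokines, as 1 class, had a median below 0 and below that of all genes. Of 35 interferon and cytokine receptors, JAKs, IRFs, STATs and their inhibitors, 13 lay above 0, the median interaction was -0.11 (-0.14 to -0.05 over the alternatives) against -0.04 for all genes, and at an unadjusted p under 0.05 there were 0 above and 7 below, where 2.59% and 2.48% of all genes passed. Transcription factors that interferon itself induces, such as Irf7, were counted among the response genes and not here. Socs5, a suppressor of cytokine signaling, was at 23.9, 25.5 and 26.6 CPM at rest and 57.5, 69.4 and 46.8 CPM at 3 h in Cre-only cells, and at 27.9, 26.8 and 28.00 and 32.4, 36.7 and 36.4 CPM in c-k/o cells (interaction -0.84, standard error 0.18, edgeR adjusted p = 0.188). Ifnar1, a subunit of the type I interferon receptor located 1.22 Mb from Runx1, was higher in c-k/o cells by 1.35 at rest and 0.88 at 3 h (edgeR adjusted p = 3.25e-05 and 0.000415), with an interaction of -0.47. Its excess was numerically smaller after activation, the other way round from the interferon response genes, with an edgeR adjusted p of 0.570 for the interaction.

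Quiescence factors were mostly reduced by activation, and by less in c-k/o cells by their median. Of 34 genes listed as quiescence factors, 24 fell in Cre-only and 22 in c-k/o cells, with medians of -1.53 in Cre-only cells and -1.29 in c-k/o cells. The list holds KLF, FOXO and BTG factors and also genes outside these families, such as Tsc22d1 and Pik3ip1. The median interaction was 0.27 (0.21 to 0.33 over the alternatives), with 26 above 0 (42.8% of all genes were). At an unadjusted p under 0.05, 7 lay above and 1 below, where 2.59% and 2.48% of all genes passed. Tsc22d1, which is not of the KLF, FOXO or BTG families, was the member called. Foxo3, a pro-quiescence forkhead factor, had changes of -1.56 and -1.19 (interaction 0.37, standard error 0.13, edgeR adjusted p = 0.738). Klf4, a Krüppel-like factor that restrains proliferation, had -7.45 and -5.29, but it is among the strongly reduced genes on which c-k/o replicate 2 at 3 h bears: it was at 4.89, 41.5 and 4.48 CPM in Runx1 c-k/o and 4.36, 2.87 and 3.31 CPM in Cre-only cells. Its interaction was 2.16 with all libraries and 0.23 without both libraries numbered 2.

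Immediate early factors were mixed: of 26, 10 rose and 12 fell in Cre-only cells and 10 rose and 11 fell in c-k/o cells, with medians of -0.16 in Cre-only cells and -0.10 in c-k/o cells. For the interaction 17 lay above 0, with a median interaction of 0.19 (0.14 to 0.38 over the alternatives) and 7 above and 1 below at an unadjusted p under 0.05 (2.59% and 2.48% of all genes). Nr4a2 was the member called, and its paralog Nr4a1 was at 443, 513 and 446 CPM in Cre-only and 883, 729 and 651 CPM in c-k/o cells at 3 h, after 1014, 1303 and 1209 and 1006, 1377 and 1136 CPM at rest (interaction 0.69, standard error 0.21, edgeR adjusted p = 0.586). Fosb and Fos had interactions of 3.90 and 2.70, with standard errors of 1.29 and 0.94. Without both libraries numbered 2 these were 0.79 and 0.70, below that of Nr4a2 at 1.39. Their levels in c-k/o replicate 2 at 3 h were 123 and 45.1 CPM against 7.21 and 5.60 in replicate 1 and 4.24 and 3.89 in replicate 3.

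Chemokines and cytokines made by B cells had a median interaction of 0.34 (0.20 to 0.60 over the alternatives), with 14 of 19 above 0 and 5 above and 0 below at an unadjusted p under 0.05, where 2.59% and 2.48% of all genes passed. With all libraries none was called after adjustment by edgeR or DESeq2. In edgeR, 3 members were called above 0 without the 2 libraries that differed most, and 1 with a RUVs factor. These fits called 126 of all 13528 and 85 of all 13538 genes above 0. Lta, which encodes lymphotoxin alpha, was at 18.2, 20.3 and 24.2 and 2.81, 3.14 and 3.19 CPM in Cre-only cells and at 23.3, 21.01 and 21.4 and 5.54, 4.33 and 4.59 CPM in c-k/o cells. It was lower at 3 h in every library, with changes of -2.78 and -2.18 (edgeR adjusted p = 0.664 for the interaction). Il10, the anti-inflammatory cytokine, was at 2.63, 3.46 and 4.33 CPM in Cre-only and 9.53, 11.4 and 10.5 CPM in c-k/o cells at 3 h, after 3.23, 4.44 and 5.33 and 3.81, 8.79 and 4.91 CPM at rest (interaction 1.17, standard error 0.41, edgeR adjusted p = 0.738). Cxcl10, an interferon-induced chemokine, had an interaction of 1.77 (standard error 0.65, edgeR adjusted p = 0.742). Myeloid cells also make several of these factors, and the myeloid marker sums given above were 76.9 to 101 CPM in Cre-only and 81.2 to 152 CPM in c-k/o cells at 3 h. The part of these cells in the result was not tested.

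**Figure D5:**
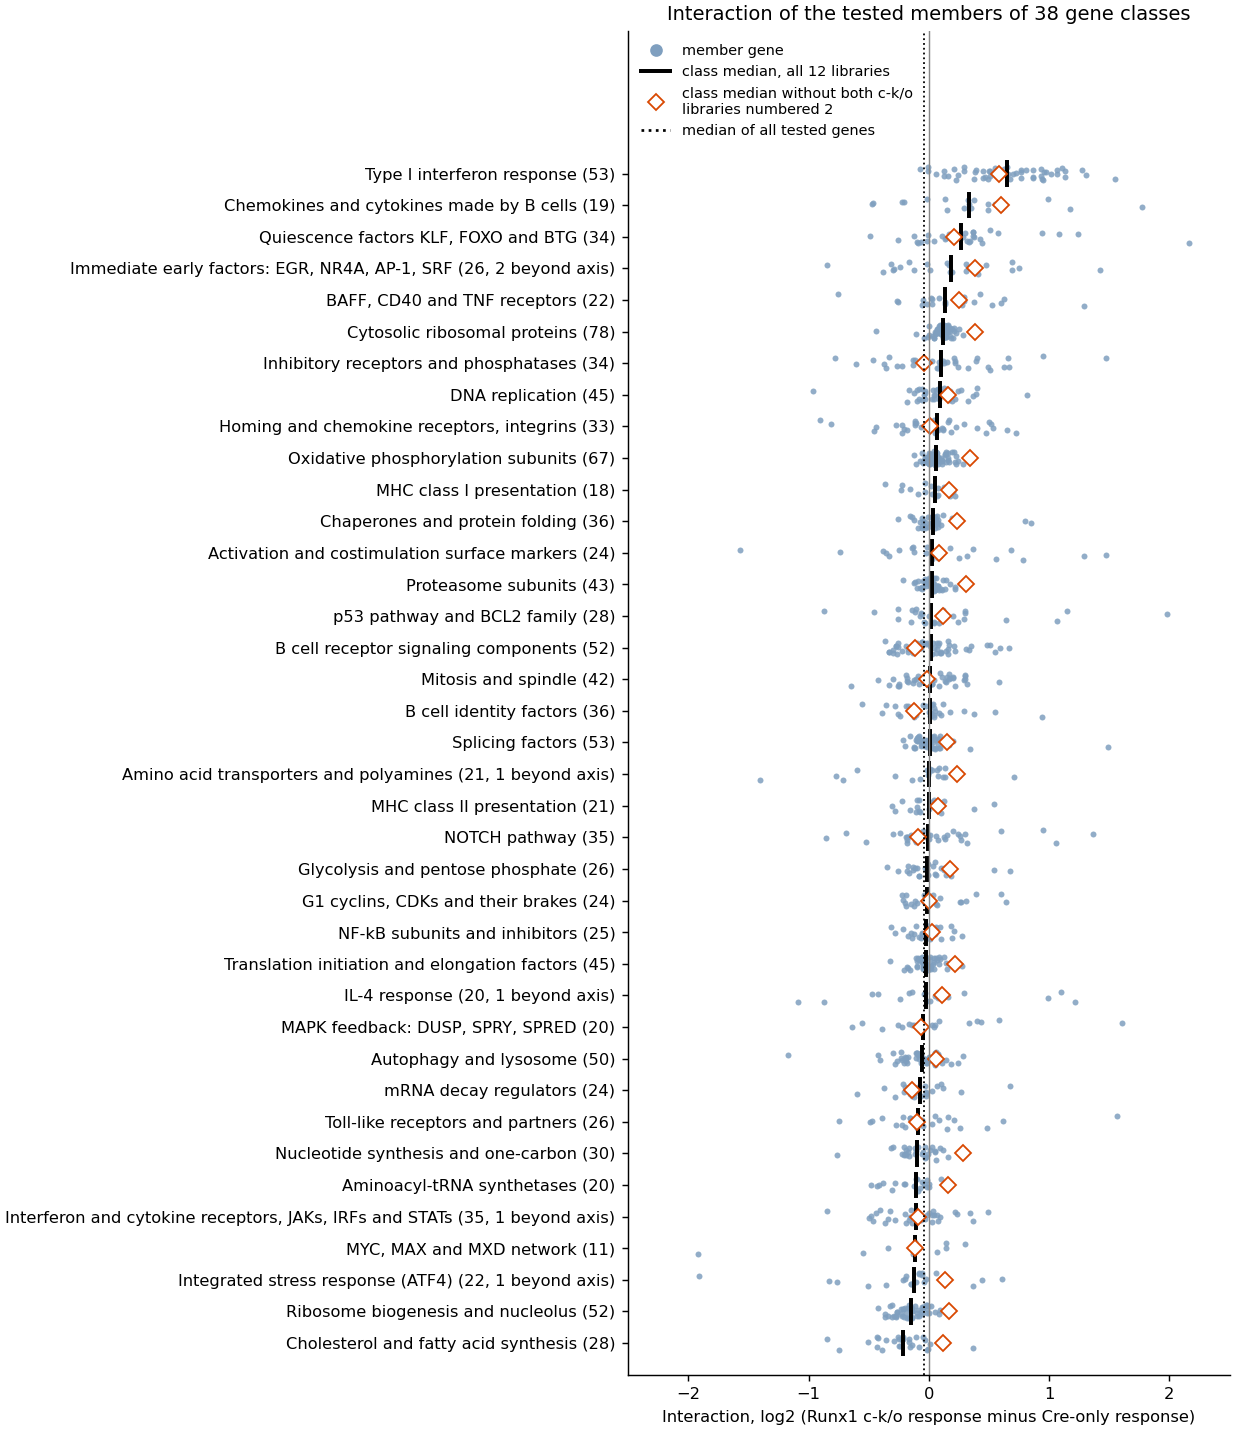
Interaction (horizontal axis, log2) of every tested member of 38 gene classes, with the number of members in parentheses, a bar at the class median with all libraries and a diamond at the median without both Runx1 c-k/o libraries numbered 2. The interferon response stands highest at 0.65 with its diamond at 0.58, while the diamonds of the cholesterol, ribosome biogenesis, nucleotide and aminoacyl-tRNA synthetase classes lie on the other side of 0 from their bars.

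BCR signaling components and surface receptors showed no common shift. Of 52 BCR signaling components, 12 rose and 32 fell in Cre-only cells, and the same numbers rose and fell in c-k/o cells. Their median interaction was 0.02 (-0.11 to 0.08 over the alternatives, changing sign), and 21 were near-equal (40.4%, where 29.0% of all genes were). At an unadjusted p under 0.05, 2 lay above and 2 below 0, where 2.59% and 2.48% of all genes passed. Fgr, a SRC-family kinase, fell by 2.54 and 1.99 on the log2 scale, and Blk, another kinase of this family, had changes of 0.12 and -0.17. Neither interaction passed after adjustment, at 0.55 and -0.30 (edgeR adjusted p = 0.594 and 0.839). Among 34 inhibitory receptors and phosphatases the median interaction was 0.11 with a change of sign over the alternatives (-0.06 to 0.19), and the members moved both ways. Cd47 was called above 0. Trib1, a pseudokinase that directs the factor CEBPA to degradation, fell from 82.4, 86.4 and 80.5 to 26.2, 28.8 and 28.8 CPM in Cre-only and from 97.2, 92.9 and 94.96 to 45.4, 56.3 and 49.4 CPM in c-k/o cells (interaction 0.66, edgeR adjusted p = 0.113). Ptpn22, a phosphatase that dampens antigen receptor signals, was at 53.2, 50.4 and 58.4 and 91.2, 94.3 and 99.6 CPM in Cre-only cells and at 36.4, 47.2 and 42.5 and 45.4, 50.1 and 50.1 CPM in c-k/o cells. Its 3-h Cre-only libraries stood above all others, with an interaction of -0.61 (edgeR adjusted p = 0.254).

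The 22 BAFF, CD40 and TNF receptor genes had a median of 0.14 (0.08 to 0.31 over the alternatives), with 16 above 0 (72.7%, where 42.8% of all genes were). None was called by edgeR, where 0.0813% of all genes were. At an unadjusted p under 0.05, 1 lay above and 0 below 0, where 2.59% and 2.48% of all genes passed. Medians of the other receptor and presentation classes were 0.03 for 24 activation and costimulation markers, 0.07 for 33 homing receptors and integrins, 0.00 for 21 MHC class II genes, -0.09 for 26 genes of Toll-like receptors and -0.01 for 35 NOTCH pathway genes. IL-4 response genes were induced with medians of 2.01 in Cre-only cells and 2.19 in c-k/o cells and had a median interaction of -0.02 (-0.10 to 0.13). Pdcd1lg2, which encodes the PD-1 ligand PD-L2, was at 8.29, 10.2 and 11.5 and 21.1, 23.4 and 22.6 CPM in Cre-only and 3.51, 4.52 and 3.32 and 14.8, 13.5 and 15.5 CPM in c-k/o cells, rising in both (interaction 0.78, edgeR adjusted p = 0.346). Cnr2, the cannabinoid receptor of lymphocytes, had changes of -1.39 and -2.21 (edgeR adjusted p = 0.192), and Tlr7, the receptor for single-stranded RNA, of 1.56 and 1.07 (edgeR adjusted p = 0.579).

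The growth program was induced in both genotypes, and the sign of its small median interaction turned with the libraries used. All 52 ribosome biogenesis genes rose in both, with medians of 2.29 in Cre-only cells and 2.19 in c-k/o cells. Their median interaction of -0.15, with 4 members above 0, became 0.17 with 45 above 0 without both libraries numbered 2. Cholesterol and fatty acid synthesis genes rose in 27 of 28 in each genotype, with medians of 2.33 in Cre-only cells and 2.15 in c-k/o cells and a median interaction of -0.22. It became 0.12 without both libraries numbered 2 and 0.05 without the 2 libraries that differed most. The class level of this group at rest was 5.04, 5.71 and 5.03 in Runx1 c-k/o and 5.06, 5.17 and 5.10 in Cre-only libraries, with c-k/o replicate 2 above the rest. Aminoacyl-tRNA synthetases went from -0.10 to 0.16 and nucleotide synthesis genes from -0.10 to 0.28 on leaving out the libraries numbered 2. Without them the proteasome and oxidative phosphorylation classes moved from 0.03 and 0.06 to 0.31 and 0.34. With all libraries no member of these classes was called by edgeR or DESeq2, and at an unadjusted p under 0.05 0 members of the 6 passed in either direction, where 5.07% of all genes did. Without both libraries numbered 2, 8 of the 30 nucleotide synthesis genes passed at this unadjusted p and 0 to 3 members of each other class. In that fit 1108 of all 13530 genes passed it. Without the 2 libraries that differed most, 5 cholesterol genes and 3 nucleotide synthesis genes passed it, and 1 of the latter was called above 0. There 1365 of all 13528 genes passed it, and 126 were called above 0.

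Cytosolic ribosomal protein genes illustrate a class set by 2 libraries. They took 5.96 to 7.09% of all counts in 10 libraries, 8.97% in c-k/o replicate 2 at rest and 9.99% in c-k/o replicate 1 at 3 h. Of 78 members, 74 lay above 0 with a median of 0.12. The median was -0.15 without c-k/o replicate 1 at 3 h, -0.01 without both of these libraries and 0.39 without both libraries numbered 2, so no direction could be assigned. Splicing factors had median changes of 0.89 in Cre-only cells and 0.93 in c-k/o cells. Of their 53 members 37 were near-equal (69.8%), where 29.0% of all genes were. The bound is easier to meet at a small standard error. Its median was 0.17 for splicing factors, 0.24 for all genes and 0.27 for the ribosomal proteins, of which 0 were near-equal. Hnrpll, a regulator of CD45 splicing, had the largest interaction among the splicing factors. It was at 1.49, 1.31 and 1.43 and 1.21, 0.784 and 1.08 CPM in Cre-only and 1.52, 1.68 and 2.12 and 3.73, 4.53 and 2.77 CPM in c-k/o cells (interaction 1.49, standard error 0.35, edgeR adjusted p = 0.244).

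The remaining classes of metabolism, stress and signaling had medians from -0.12 to 0.05. The lowest was that of 22 integrated stress response genes, which became 0.14 without both libraries numbered 2, and the highest that of 18 MHC class I presentation genes. Between them lay the MYC network (-0.11), mRNA decay regulators (-0.07), autophagy and lysosome genes (-0.05), MAPK feedback genes (-0.05), NF-kB subunits and inhibitors (-0.02), translation factors (-0.02), glycolysis genes (-0.01), amino acid transporters (0.00), B cell identity factors (0.01), genes of the p53 pathway and BCL2 family (0.02) and chaperones (0.03). With all libraries edgeR called Gadd45a of the p53 group alone among these classes. Several of these medians moved with the libraries used. Without both libraries numbered 2 they were 0.22 for translation factors, 0.24 for amino acid transporters, 0.23 for chaperones, 0.18 for glycolysis genes and -0.13 for B cell identity factors. Without c-k/o replicate 1 at 3 h the MHC class I median was -0.11 and that of mRNA decay regulators 0.07.

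Of the cell cycle classes, G1 and mitosis genes had medians near that of all genes, -0.04, and DNA replication genes had a median above it. The median was -0.02 for 24 G1 cyclins, CDKs and their inhibitors (-0.05 to 0.07 over the alternatives) and 0.01 for 42 mitosis genes (-0.04 to 0.10). It was 0.10 for 45 DNA replication genes (0.03 to 0.16), with 31 above 0 (68.9%, where 42.8% of all genes were). At an unadjusted p under 0.05, 2 of these 45 lay above and 1 below 0, where 2.59% and 2.48% of all genes passed. Pole2, a subunit of DNA polymerase epsilon, lay below 0 and was at 4.29, 3.59 and 4.52 and 16.4, 18.9 and 22.4 CPM in Cre-only and 2.99, 3.88 and 3.72 and 8.50, 7.94 and 8.77 CPM in c-k/o cells, with an interaction of -0.96 (standard error 0.22, edgeR adjusted p = 0.236). Cdkn1a, the CDK inhibitor p21, had changes of 0.04 and 0.68 (edgeR adjusted p = 0.697).

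A list of 12 cell cycle and immediate early genes, selected with these samples in view and so no independent evidence, had a median interaction of 0.19, with 8 above 0 (66.7%, where 42.8% of all genes were). With all libraries edgeR called 0 of them, where 0.0813% of all genes were called, and DESeq2 called 0. At an unadjusted p under 0.05, 0 lay above and 1 below 0, where 2.59% and 2.48% of all genes passed. Between the genotypes, edgeR called 1 of the 12 higher in c-k/o cells at rest and 3 at 3 h, where 0.731% and 1.47% of all genes were. Without the 2 libraries that differed most the median was 0.31. Then 7 of the 12 passed at an unadjusted p under 0.05, and edgeR called 3 above and 1 below 0. In that fit 1365 of all 13528 genes passed at this unadjusted p, and 126 were called above and 61 below 0. Without both libraries numbered 2 the median was 0.30, with 6 at that unadjusted p and 0 called. In this second fit 1108 of all 13530 genes passed at that p, and 6 were called above and 4 below 0. Myc, the growth regulator, was at 328, 374 and 425 CPM at rest and 964, 1064 and 1015 CPM at 3 h in Cre-only cells, and at 293, 500.2 and 343 and 1475, 1119.7 and 1183 CPM in c-k/o cells. It rose in both, by 1.43 and 1.73, and the interaction was 0.30 (interval -0.26 to 0.86). Without both libraries numbered 2 it was 0.63 (edgeR adjusted p = 0.443). Egr2, a factor induced by antigen receptor signals, was at 42.4, 46.6 and 44.6 and 624, 622 and 626 CPM in Cre-only and 74.6, 170.3 and 81.2 and 912, 795 and 838 CPM in c-k/o cells. The c-k/o libraries were higher at both times, with replicate 2 the highest at rest, and the interaction was -0.84 (interval -1.58 to -0.11). It was -0.32 without both libraries numbered 2 and -0.40 without the 2 that differed most, where it passed (edgeR adjusted p = 0.0236). For Ccnd2, a G1 cyclin, the interaction was 0.07 (-0.56 to 0.69), and for E2f1, a factor of S-phase entry, it was 0.27 (-0.18 to 0.72). Without the 2 libraries that differed most Ccnd2 was at 0.53 and passed (edgeR adjusted p = 0.0428). A list of 13 B cell function genes, also selected on these samples, had a median of 0.24 and Zbp1 called, where 0.0813% of all genes were called. At an unadjusted p under 0.05, 5 of the 13 lay above and 3 below 0, where 2.59% and 2.48% of all genes passed. Without the 2 libraries that differed most edgeR called 4 of the 13 above and 3 below 0, against 126 and 61 of all genes. Lrrk2, a kinase, had changes of -0.12 and -1.29, with an interaction of -1.17 (standard error 0.33, edgeR adjusted p = 0.459).

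Beyond the 11 called genes, those with the next smallest p were split between directions. Sfxn3, a mitochondrial carrier, was at 49.6, 52.9 and 48.3 and 26.9, 25.02 and 25.9 CPM in Cre-only and 60.4, 54.2 and 58.3 and 16.2, 18.7 and 17.96 CPM in c-k/o cells, so the c-k/o libraries were higher at rest and lower at 3 h (interaction -0.75, standard error 0.12, edgeR adjusted p = 0.0505). B4galnt1, a ganglioside synthase, was at 195, 221 and 220.5 and 90.9, 94.7 and 99.6 CPM and at 152, 158 and 149 and 116, 108 and 107 CPM, the reverse pattern (interaction 0.69, edgeR adjusted p = 0.0505). Dusp3, a MAP kinase phosphatase, was at 20.00, 20.8 and 21.2 and 54.4, 59.3 and 59.1 CPM in Cre-only and at 31.9, 35.3 and 31.9 and 56.9, 59.1 and 61.7 CPM in c-k/o cells (interaction -0.64, edgeR adjusted p = 0.0756). The 3 genes all missed the threshold. The glucose transporter Slc2a1 was at 65.5, 81.5 and 75.5 and 41.3, 39.8 and 41.5 CPM in Cre-only and at 71.9, 78.2 and 73.3 and 68.8, 66.5 and 60.9 CPM in c-k/o cells. Its resting groups overlapped and its 3-h groups did not (interaction 0.67, edgeR adjusted p = 0.117). Klhdc1, which lies next to Klhdc2 on chromosome 12, from 70342163 to 70385619, also had an interaction below 0: it was at 9.20, 7.46 and 8.00 and 10.4, 11.95 and 10.6 CPM in Cre-only and at 6.38, 6.53 and 7.57 and 4.83, 4.53 and 4.06 CPM in c-k/o cells (interaction -1.02, standard error 0.19, edgeR adjusted p = 0.0911). With Itsn1 and Prss12, Klhdc1, Fam53b and Hecw2 made up the 5 genes with opposite responses, the last 2 named after their values were seen, at 0.45 and -0.34 for Fam53b and 0.57 and -0.78 for Hecw2 in Cre-only and c-k/o cells.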

How the data were processed

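RNA of splenic resting B cells was sequenced in 12 samples, 3 in each of 4 groups given by the labels. The authors added ERCC spike-in RNA, made stranded poly(A) libraries from 500 ng of RNA with the TruSeq kit and sequenced paired ends. Per the labels and the study's methods, the reads were processed with CASAVA 1.8.4, aligned to mm9 with TopHat2 2.0.11 and Ensembl genes and counted with featureCounts. The deposited values are raw counts per gene with 0 spike-in entries, so levels are relative to the library. Strand setting and treatment of reads with several alignments are not given in the sources used here. Every count column matched 1 sample.

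Genes were filtered with filterByExpr (minimum of 10 counts), normalized by TMM and fitted in edgeR 4.0.16 (R 4.3.3) as 4 groups with the robust quasi-likelihood method. The interaction, both activation responses, their average and the genotype differences were contrasts of this fit, each with its quasi-likelihood F test. P-values were adjusted over all tested genes by the Benjamini-Hochberg method, with a threshold of 0.05. Intervals are 95% intervals from the standard error of the log2 value. The study's own model used DESeq2 with factors of unwanted variation of a number and control genes that are not given, so these were alternatives.

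The gene classes were written from general knowledge, and the members and lists were chosen with earlier results of these data known. Genes named were those called for the interaction, those of the lists the study measured, Runx1 and Runx3, the 4 members of each class with the smallest interaction p, the 10 most induced and the 10 most reduced genes, and the 10 genes in each direction with the smallest p among those not called. Oas1a, Irgm1, Gbp2, Adar and Dtx3l were named after their values were seen. Promoters came from RefSeq (GRCm38.p6), matched by symbol.

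There were 22 alternative fits: DESeq2 size factors, no filter, a stricter filter (10 counts in each sample), DESeq2 1.42.0 with its Wald test, a RUVs factor in either tool (computed from replicate differences), replicate blocks, each sample left out, and, chosen after seeing the data, 2 fits that left out pairs of Runx1 c-k/o libraries. Other scripts used Python 3.11.15 with pandas 2.3.3, scipy 1.17.1 and matplotlib 3.10.9. The R fits were tested on simulated counts with known interactions. These were drawn independently, with the same dispersion of a gene in all groups. They thus held no deviation shared by the genes of a library and no larger spread in c-k/o cells, so the rates may not hold for these libraries. There edgeR called 5 of 60 genes with a true interaction of 0.5 on the log2 scale, 40 of 80 at 1 and 48 of 60 at 2. It also called 10 of 13338 genes without one. DESeq2 called 8, 47 and 50 genes at these sizes and 21 of the 13338. Total counts per library limit the precision as given above, and intervals and floors cover counting error only where they rest on a count of 3.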

Additional observations from a re-analysis of the deposited data

Results flagged for a closer look

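In the fit without a block, the response to activation differed between the genotypes for the 11 genes called by edgeR's test of the interaction. On the log2 scale the difference was 1.62 for Itsn1, 1.24 for Tsc22d1, 1.42 for Nr4a2, 1.00 for Elk3, 0.95 for Cd47, 1.07 for Gadd45a, 0.93 for Zbp1, 1.55 for Plcxd2 and 4.91 for Prss12, which all lay above 0. It was -1.29 for Klhdc2 and -1.04 for Ass1. The value of Prss12 rests on 1 to 5 counts in each library outside the resting Cre-only group. With the replicate number as a block within each genotype, Tsc22d1, Nr4a2 and Plcxd2 alone among the 11 passed. The edgeR adjusted p of the others was then 0.0709 to 0.290. Zbp1 passed in 10 of 22 alternatives, and Ass1 and Plcxd2 in 12 each.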

How the results depend on the processing

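The count of genes called for the interaction moved widely: against 11, it was 79 in the Wald test of DESeq2, 142 with 1 RUVs factor in edgeR, 252 with 1 RUVs factor in DESeq2 and 187 without the 2 libraries that differed most from their group means. Leaving out each library in turn gave 4 to 31. It gave 4, 5 and 5 without Cre-only replicates 1, 2 and 3 at rest, 6 and 5 without Cre-only replicates 2 and 3 at 3 h, 5 without Runx1 c-k/o replicate 2 at 3 h, 17 without c-k/o replicate 2 at rest and 31 without c-k/o replicate 1 at 3 h. The cause was not tested. The replicate block within each genotype called 4 genes, all above 0 and 3 of them among the 11. Same-numbered resting and 3-h samples had correlations of their deviations of 0.31, 0.21 and 0.17 in Cre-only cells, each best with its own number, and of -0.32, -0.32 and 0.33 in Runx1 c-k/o cells, so the numbers went with a shared deviation in Cre-only but not in c-k/o samples, and the fit without a block was kept. A block by number over all 4 groups called 12.

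Class medians moved as follows. The interferon response was 0.49 to 0.85 without each library in turn (0.84 without Cre-only replicate 3 and 0.85 without c-k/o replicate 1, both at 3 h). Cytosolic ribosomal proteins were at 0.39 without both c-k/o libraries numbered 2 and between -0.15 and 0.28 without each library. Cholesterol and fatty acid synthesis was at 0.051 without the 2 libraries that differed most, at 0.12 without both numbered 2 and between -0.33 and 0.071 without each library. The median of all genes was 0.0081 with DESeq2 size factors, 0.014 with at least 10 counts in every sample, 0.0083 in DESeq2, 0.0087 and 0.0069 in the 2 fits without pairs of libraries, and -0.053 to 0.018 without each library.

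Induced genes numbered 4520 when an average change of 0.5 was enough and 771 when 2 was required, and reduced genes 1587 at 2. Near-equal induced genes numbered 324 with the block within genotypes, 1480 without the 2 libraries that differed most, 2 and 1911 with bounds of 0.25 and 1, 1405 and 21 with average changes of 0.5 and 2, and 379 to 823 without each library. Near-equal reduced genes numbered 676 and 700 with RUVs in edgeR and DESeq2, 715 without the 2 libraries, 3 and 1457 with bounds of 0.25 and 1, 759 and 59 with average changes of 0.5 and 2, and 255 to 475 without each library. The counts of activation genes in each genotype and on average stayed within 1.5 times of their values in all 22 fits, and no result changed its sign among those called. Depth limits the values of genes near 3 counts in a library, such as Prss12.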
